A study of Mus musculus with 48 samples.

Results

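Mice that lack the cannabinoid receptor CB1 in GABAergic neurons (GABA-CB1-KO) were compared with their CB1-WT littermates in the basal, home cage state. The comparison holds the 12 of the 48 libraries of the series that are labelled as the GABA-CB1 line and basal, 6 GABA-CB1-WT and 6 GABA-CB1-KO. The series measured RNA-seq of the hippocampal CA region, with the dentate gyrus removed, in this line and in a Glu-CB1 line, each in the basal state or after exposure to an open field. All 12 mice were males with an age of 8 weeks on the labels, and each library came from 1 mouse. The strain on the labels is dlx5/6-cre x CB1f/f for both genotypes: CB1 alleles flanked by loxP sites, and Cre driven by regulatory elements of the Dlx5 and Dlx6 genes, which are active in forebrain GABAergic neurons from development on. Which of these alleles the CB1-WT littermates carry is not given in the sources used here, so an effect of the transgene itself cannot be told apart from that of CB1 loss. Samples had been selected by the study for purity of the dissection before sequencing.

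CB1 is a Gi/o-coupled receptor on axon terminals. Endocannabinoids, chiefly 2-arachidonoylglycerol made by diacylglycerol lipase in the postsynaptic cell, activate it and thereby lower the release of transmitter. In the hippocampus the receptor is most abundant on the terminals of cholecystokinin (CCK) basket cells, and lower levels are found on the terminals of glutamatergic neurons.

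Between 25892654 and 34091080 reads were counted on genes per library. Levels are given as CPM, counts scaled to a common library size after TMM normalization. Before the genotypes are compared, 5 libraries have to be named that stand apart in some genes. In 3 of them, CB1-WT replicates 1 and 5 and GABA-CB1-KO replicate 2, Lnpep (insulin-regulated aminopeptidase) lay between 5.33 and 8.12 CPM, against 62.02 to 89.1 CPM in the other 9. These 3 libraries had at least 2-fold lower levels, without overlap, of 69 genes and of no gene higher by the same measure. Among the 69 were the NMDA receptor subunits Grin2a and Grin2b, the neuregulin receptor Erbb4, the GABA-A receptor subunits Gabrb1 and Gabrg3 and the potassium channel genes Kcnh7, Kcnma1 and Kcnq3. The median exon length of the 69 genes was 4257 bases, against 2961 bases over all genes tested. For the 67 of them with a transcript in GENCODE, the median GC content of the longest transcript was 42.4%, against 49.7% over the tested genes with one. GABA-CB1-KO replicate 3 had 66637 CPM of the ribosomal RNA gene Rn45s, against 616 to 814 CPM elsewhere, and the lowest count total. CB1-WT replicate 3 had 1392 CPM of Ttr (transthyretin), the leading choroid plexus gene, against 18.01 to 63.5 CPM elsewhere. What set these libraries apart was not tested, and the calls that are lost without them are named below.

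**Figure D1:**
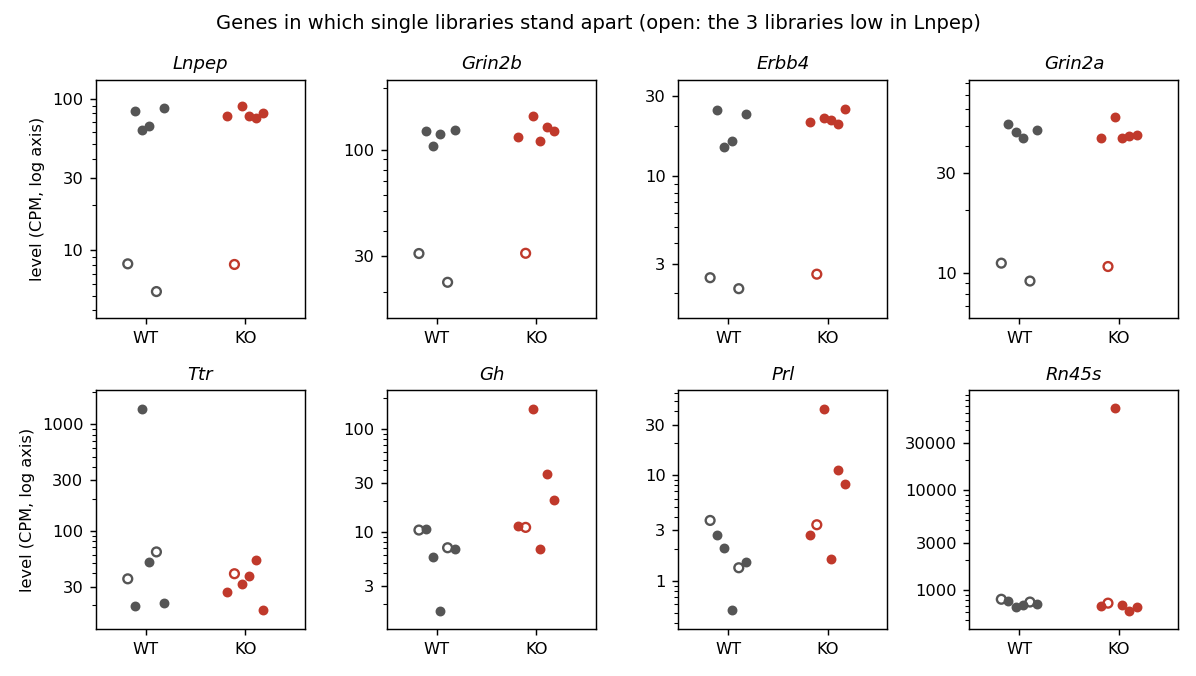
Level (CPM, log axis) of 8 genes in each of the 6 CB1-WT (grey) and 6 GABA-CB1-KO (red) home cage libraries; open circles are the 3 libraries with Lnpep under 20 CPM. The open circles lie below all filled ones in Lnpep, Grin2b, Erbb4 and Grin2a, while 1 CB1-WT library is far above the rest in Ttr and 1 GABA-CB1-KO library in Gh, Prl and Rn45s.

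Grin2b shows what this spread does to a single gene. It was listed at 31.02, 22.4 and 31.1 CPM in the 3 libraries, and between 104 and 147 CPM in the others. Its log2 fold change over all 12 libraries was 0.32 (SE 0.41, edgeR adjusted p = 0.855). Without the 3 libraries, the means were 118 ± 9.48 CPM (SD, n = 4) in CB1-WT and 125 ± 14.3 CPM (SD, n = 5) in GABA-CB1-KO mice, a log2 change of 0.08 (edgeR adjusted p = 0.821). The 3 libraries fall in both genotypes, as 2 of 6 and 1 of 6. None of the 69 genes was among those called between genotypes.

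Cnr1 (mm10, chromosome 4, 33924632–33948831), which encodes CB1, checks the labels. It lay between 312 and 389 CPM (median 347) in the CB1-WT libraries and between 141 and 159 CPM (median 149.5) in the GABA-CB1-KO libraries, so that the groups were widely apart. The decrease was −1.23 (SE 0.05, edgeR adjusted p = 3.8e-09) on the log2 scale, which leaves a fold of 0.425 of the CB1-WT level. Cells that keep CB1 and reads of the recombined gene are not separated in the counts. In bulk tissue, fewer cells of a type and less RNA per cell cannot be told apart, here or for the genes that follow. Of 17 other tested genes within 1 Mb of Cnr1, none was called by edgeR. Their log2 fold changes ran from −0.14 to 2.62, the highest being that of Cga, the alpha subunit of pituitary hormones, at 0.209 CPM in CB1-WT mice (edgeR adjusted p = 0.151). DESeq2 called Cga (adjusted p = 0.0127). Its level ran from 0.279 to 3.74 CPM in the GABA-CB1-KO libraries, highest in replicate 3.

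Over all genes tested, 37 of 15082 were called at an adjusted p under 0.05 (0.245%), 31 of them lower (0.206%) and 6 higher (0.0398%) with the deletion. The 31 decreases had a median of −0.37 on the log2 scale, and 22 of them were under 0.5 in size. Apart from Cnr1 at −1.23, they ran from −0.14 (Nell1) to −0.88 (Slc18a2). In 36 of the 37 genes no GABA-CB1-KO library overlapped with a CB1-WT library, which was so for 115 of all genes tested (0.762%; all GABA-CB1-KO libraries lower in 0.497%, higher in 0.265%), and Dpy19l3 was the exception. The median log2 fold change of all genes was −0.000539. At an unadjusted p under 0.05, 1230 genes (8.16%) differed, 584 higher (3.87%) and 646 lower (4.28%). With the 3 libraries low in Lnpep marked by a covariate, 45 genes were called, 36 of them among the 37, and Pdlim1 was lost (adjusted p = 0.0546). With those libraries left out, 22 genes were called, 16 of them among the 37, and the adjusted p of the other 21 lay between 0.0532 and 0.219. DESeq2 called 102 genes (0.512%), the 37 among them. Without both replicates 3 there were 27, of which 21 were among the 37, and the adjusted p of the other 16 lay between 0.0713 and 0.186. Of the 37 genes, 14 were called in both of these fits: Cnr1, Ptgs2, Svop, Trnp1, Klk8, Bok, Kif17, Chgb, Blnk, Rimbp2, Serinc2, Crhbp, Ostf1 and Slc18a2. Another 14 were lost in both: Gadd45g, Fibin, Tanc1, Sh2d5, Lmo2, Rps6ka5, Nrn1, Lrrc10b, Lhx9, Rem2, Ache, Lgals1, Pdlim1 and Phactr2. Npas4, Kcnip3, Rspo1, Nell1, Stac2, Dpy19l3 and Clec18a were lost only without the 3 libraries, and Lgr5 and Prss23 only without both replicates 3.

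**Figure D2:**
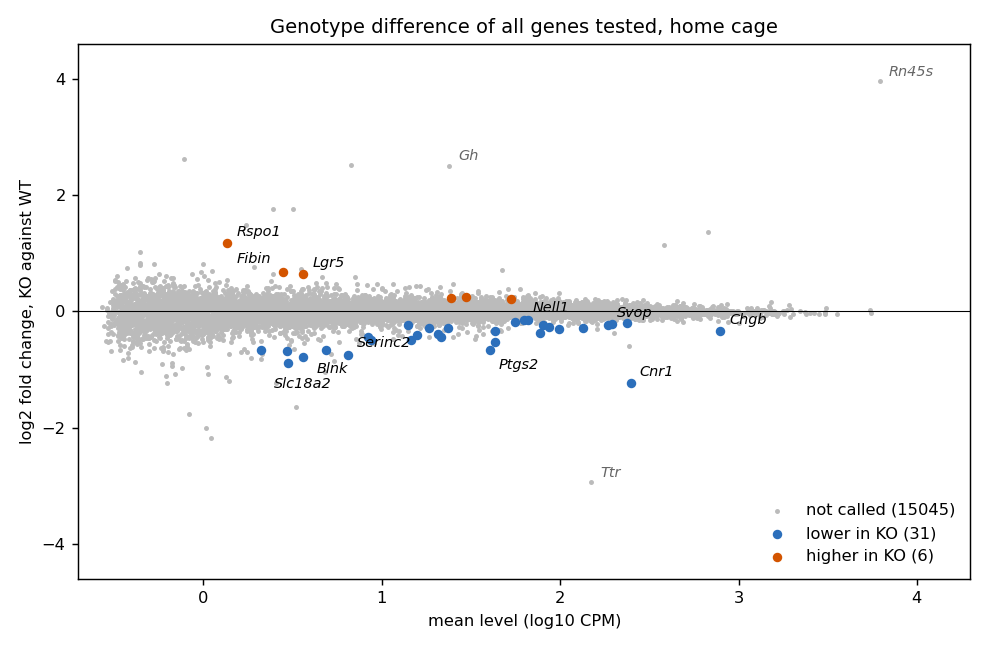
Log2 fold change of GABA-CB1-KO against CB1-WT (y axis) by mean level (x axis, log10 CPM) for the 15082 genes tested in the home cage comparison. The 31 genes called lower (blue) and 6 called higher (orange) mostly lie within 0.9 log2 units of 0, except Cnr1 at −1.23 and Rspo1 at 1.17; the large grey values, such as Ttr, Gh and Rn45s, come with 1 or a few libraries.

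The endocannabinoid system was represented by 18 genes, and of 15 tested members, 3 were higher in GABA-CB1-KO mice and 12 lower (median −0.07, against −0.000539 over all genes). Cnr1 and Ptgs2 were called. Ptgs2 (cyclooxygenase-2; mm10, chromosome 1, 150100124–150108012), the activity-induced enzyme that makes prostaglandins from arachidonic acid and also oxidizes endocannabinoids, lay between 45.4 and 59.2 CPM (median 47.9) in the CB1-WT libraries and between 27.9 and 34.3 CPM (median 31.2) in the GABA-CB1-KO libraries. Every GABA-CB1-KO library was thus below every CB1-WT library. The log2 fold change of Ptgs2 was −0.67 (SE 0.07, edgeR adjusted p = 0.000668), and it was called with each library left out (highest adjusted p = 0.00437) and in all 12 other fits. Mgll, the monoacylglycerol lipase that degrades 2-arachidonoylglycerol, lay from 198 to 229 CPM (median 215) in CB1-WT and from 189 to 197 CPM (median 195) in GABA-CB1-KO mice. The groups did not overlap, yet the log2 difference of −0.13 (SE 0.04, edgeR adjusted p = 0.219) was not called. Gde1, a phosphodiesterase in a route to anandamide, also lay lower without overlap, with −0.09 (SE 0.03, edgeR adjusted p = 0.273). For the synthesizing enzymes Dagla and Daglb the values were −0.09 (SE 0.04, edgeR adjusted p = 0.626) and −0.12 (SE 0.05, edgeR adjusted p = 0.521). The values of Faah, the hydrolase of anandamide (−0.05), and of Napepld (0.06), Abhd6 (−0.07) and Abhd12 (−0.03) were closer to 0, with adjusted p-values from 0.706 to 0.85. Cnrip1, which encodes a protein that binds the tail of CB1, had −0.05 (SE 0.03, edgeR adjusted p = 0.734).

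**Figure D3:**
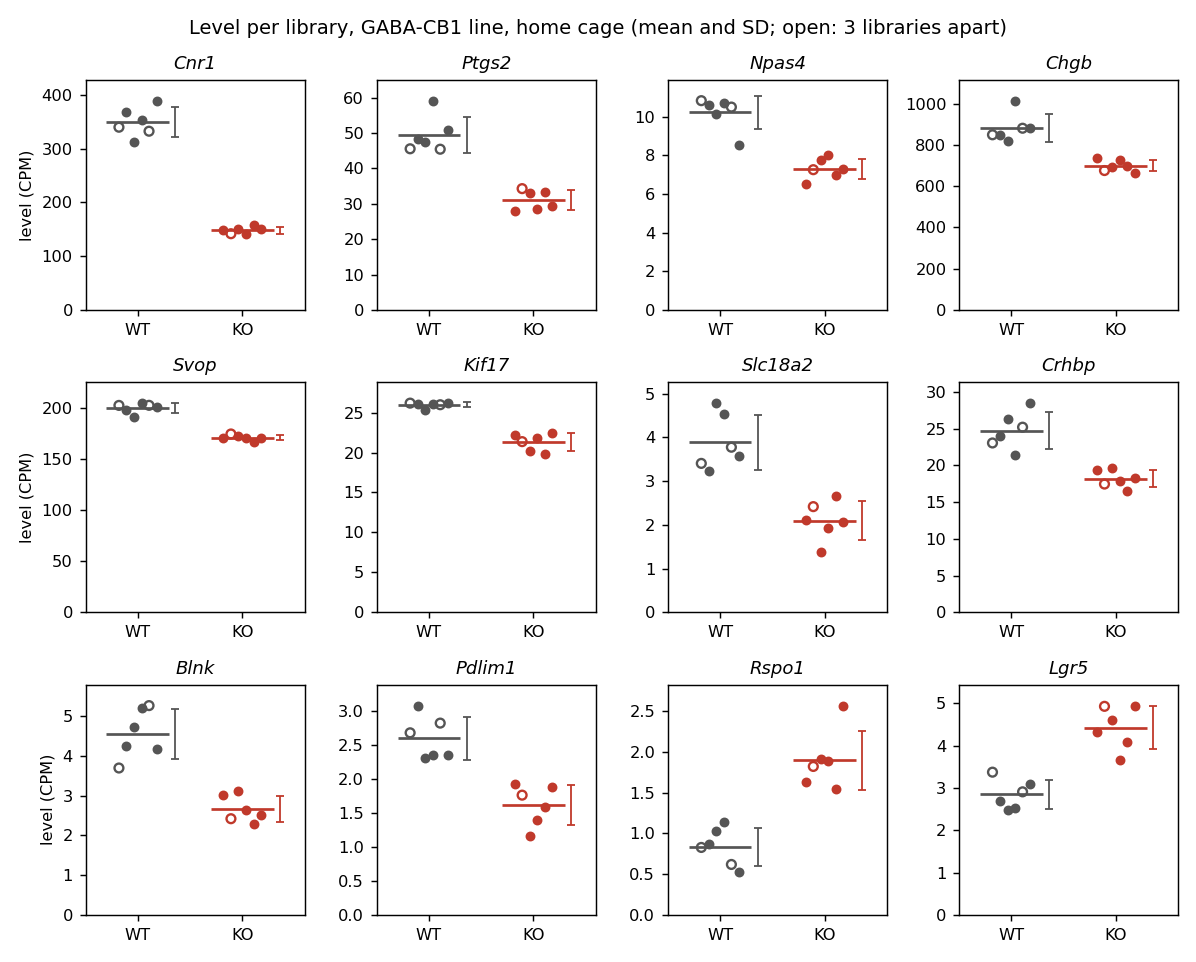
Level (CPM) of 12 called genes in each home cage library, CB1-WT in grey and GABA-CB1-KO in red, with the group mean (line) and SD (bar); open circles are the 3 libraries low in Lnpep. In each of the 12 genes the groups do not overlap: Cnr1, Ptgs2, Npas4, Chgb, Svop, Kif17, Slc18a2, Crhbp, Blnk and Pdlim1 are lower, Rspo1 and Lgr5 higher in GABA-CB1-KO mice.

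Genes induced by neuronal activity were sampled by a list of 34 immediate early genes. Here, of 34 tested members, 16 were higher in GABA-CB1-KO mice and 18 lower (median −0.02), and Npas4 and Ptgs2 were called. Npas4 (mm10, chromosome 19, 4984355–4989971), a transcription factor induced by calcium entry, lay from 8.53 to 10.8 CPM (median 10.6) in CB1-WT and from 6.54 to 7.99 CPM (median 7.26) in GABA-CB1-KO mice. Its log2 fold change was −0.49 (SE 0.07, edgeR adjusted p = 0.00604), and lost the call without the 3 libraries low in Lnpep (log2 fold change −0.45, adjusted p = 0.0636). The other members with an unadjusted p under 0.05 were 4 lower and 1 higher. Bdnf, a growth factor, had −0.32 (SE 0.10, edgeR adjusted p = 0.355), and Ier5 had −0.37 (SE 0.08, edgeR adjusted p = 0.113), which was called with the libraries low in Lnpep as a covariate (adjusted p = 0.0303). Egr2 had the opposite sign, 1.49 (SE 0.61, edgeR adjusted p = 0.569), through GABA-CB1-KO replicate 5 alone, at 9.73 CPM against 0.621 to 1.47 CPM in the other 11. The same library was the highest of the GABA-CB1-KO libraries in Bdnf (52.9 CPM) and Fosb (9.08 CPM), and without it the log2 fold changes were −0.41 for Bdnf (adjusted p = 0.086) and −0.71 for Fosb (adjusted p = 0.0832). The following called genes are not on the list and were named after their values were seen. Gadd45g, of a family linked to DNA demethylation, lay from 4.88 to 6.96 CPM (median 5.95) in CB1-WT and from 3.25 to 4.55 CPM (median 3.69) in GABA-CB1-KO mice. Its log2 fold change was −0.66 (SE 0.11, edgeR adjusted p = 0.019), and the call was lost without the 3 libraries (adjusted p = 0.0569) and without both replicates 3 (adjusted p = 0.0903). Nrn1 (neuritin), an activity-induced surface protein of axons and dendrites, had −0.20 (SE 0.04, edgeR adjusted p = 0.039). Rem2, a GTPase that inhibits voltage-gated calcium channels, had −0.28 (SE 0.05, edgeR adjusted p = 0.0426). Without the 3 libraries the adjusted p was 0.0843 for Nrn1 and 0.191 for Rem2, and without both replicates 3 it was 0.132 and 0.165. Klk8 (neuropsin), a secreted protease, lay from 15.4 to 18.7 CPM (median 16.9) in CB1-WT and from 10.7 to 12.8 CPM (median 12.4) in GABA-CB1-KO mice, a change of −0.49 (SE 0.06, edgeR adjusted p = 0.00269), and was called in all 12 other fits. Fosb, Nr4a2 and Arc were not called, with log2 fold changes of −0.26, 0.19 and 0.03 (adjusted p = 0.833, 0.771 and 0.976).

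Called genes with a role in vesicles, release sites or synapses were grouped here after their values were seen. Chgb (chromogranin B; chromosome 2, 132781278–132795072), a core protein of dense-core vesicles, was called lower. It lay between 818 and 1014 CPM (median 865) in the CB1-WT libraries and between 665.4 and 737 CPM (median 696) in the GABA-CB1-KO libraries, and CB1-WT replicate 4 was the highest. The decrease was −0.33 (SE 0.05, edgeR adjusted p = 0.00604). Chgb was called in 10 of the 12 other fits (highest adjusted p = 0.15). Svop, a transporter-like protein of synaptic vesicles, lay from 191 to 205 CPM (median 201) in CB1-WT and from 167 to 174 CPM (median 170.3) in GABA-CB1-KO mice. With a log2 fold change of −0.23 (SE 0.02, edgeR adjusted p = 0.000668) it had a small change and a narrow spread, of 4.75 and 2.64 CPM (SD). Slc18a2 (VMAT2), the vesicular monoamine transporter, lay from 3.23 to 4.78 CPM (median 3.68) in CB1-WT and from 1.37 to 2.67 CPM (median 2.09) in GABA-CB1-KO mice. Its decrease of −0.88 (SE 0.14, edgeR adjusted p = 0.0171) was the largest after Cnr1, and the call was lost in 4 of 12 fits that each left out 1 library, and the adjusted p reached 0.0572 without GABA-CB1-KO replicate 6. Rimbp2, which links calcium channels to release sites, went from 147 ± 8.24 CPM (SD, n = 6) to 121 ± 5.21 CPM (SD, n = 6), a log2 fold change of −0.28 (SE 0.04, edgeR adjusted p = 0.00621). Kif17, a dendritic kinesin, had a CB1-WT spread of only 0.318 CPM (SD) around 25.95 CPM, and 21.3 ± 1.08 CPM in GABA-CB1-KO mice (−0.28 (SE 0.04, edgeR adjusted p = 0.00404)). Ache (acetylcholinesterase) had −0.19 (SE 0.04, edgeR adjusted p = 0.0433) and Tanc1, a postsynaptic scaffold protein, −0.21 (SE 0.04, edgeR adjusted p = 0.0354). Ache was lost in 11 and Tanc1 in 10 of the 12 fits that left out a library, and without the 3 libraries low in Lnpep the adjusted p was 0.16 and 0.171, without both replicates 3 it was 0.132 and 0.107.

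In the corresponding lists, the neuropeptides and granins had 12 of 30 tested members higher and 18 lower (median −0.03), with 3 and 8 at an unadjusted p under 0.05. Chgb was the 1 called. Vgf, which encodes a precursor of secreted peptides, lay from 85.2 to 95.1 CPM (median 88.1) in CB1-WT and from 67.04 to 83.4 CPM (median 73.8) in GABA-CB1-KO mice without overlap, at −0.26 (SE 0.06, edgeR adjusted p = 0.0888). Tac2 (neurokinin B) had the opposite sign, 0.53 (SE 0.17, edgeR adjusted p = 0.394). Of 37 genes of synaptic vesicle release, 13 were higher and 24 lower (median −0.04), 1 and 8 of them at an unadjusted p under 0.05, and none was called by edgeR. Its smallest adjusted p-value was that of Vamp1, a vesicle SNARE, at −0.17 (SE 0.04, edgeR adjusted p = 0.114), and Unc13b, a priming factor, had −0.18 (SE 0.04, edgeR adjusted p = 0.168). Among 28 tested genes of monoamine handling and receptors, 18 were higher and 10 lower (median 0.03), and Slc18a2 was the 1 called. Htr1b, a serotonin receptor of axon terminals, had 0.43 (SE 0.10, edgeR adjusted p = 0.145).

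The promoters of Chgb, Kif17 and Slc18a2 are shown because they share a letter string. RefSeq promoters (GRCm38.p6, the assembly of mm10), from 250 bases before to 50 bases after the annotated start, were at hand for 25 of the 31 genes called lower and for 5 of the 6 called higher. They were searched for TGACGTCA, the full cAMP response element, which reads the same on both strands. It stood in 3 of the 25 (12.0%), against 393 of 11390 tested genes with a promoter (3.45%) and 549 of all 27025 (2.03%), and in none of the 5. The shorter element TGACG, searched on both strands and contained in the full one, stood in 10 of the 25 (40.0%) and in 3854 of the 11390 (33.8%). A match is a description of the letters and shows no binding. The sequences run 5′ to 3′ along the strand of the gene, with the full element in capitals.
Chgb (chr2:132781392-132781691, + strand): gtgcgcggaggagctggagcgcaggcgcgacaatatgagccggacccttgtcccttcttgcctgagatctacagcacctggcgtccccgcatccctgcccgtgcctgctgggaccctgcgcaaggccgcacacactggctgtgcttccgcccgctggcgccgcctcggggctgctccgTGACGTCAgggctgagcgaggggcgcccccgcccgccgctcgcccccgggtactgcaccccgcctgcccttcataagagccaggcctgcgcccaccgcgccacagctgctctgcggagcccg
Kif17 (chr4:138262001-138262300, + strand): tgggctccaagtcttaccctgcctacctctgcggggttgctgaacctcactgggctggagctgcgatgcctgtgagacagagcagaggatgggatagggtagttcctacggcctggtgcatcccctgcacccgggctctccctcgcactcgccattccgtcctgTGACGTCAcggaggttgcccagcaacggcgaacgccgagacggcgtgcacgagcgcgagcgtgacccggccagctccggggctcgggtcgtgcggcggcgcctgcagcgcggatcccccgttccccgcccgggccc
Slc18a2 (chr19:59260628-59260927, + strand): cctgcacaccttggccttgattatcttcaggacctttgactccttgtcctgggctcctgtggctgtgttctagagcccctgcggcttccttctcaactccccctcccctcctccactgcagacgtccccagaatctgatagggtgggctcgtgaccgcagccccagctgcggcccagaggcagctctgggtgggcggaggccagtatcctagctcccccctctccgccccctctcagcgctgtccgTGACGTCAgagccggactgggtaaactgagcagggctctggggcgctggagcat
The element starts 72 bases before the start annotated for the promoter in Chgb, 86 bases before it in Kif17 and 4 bases before it in Slc18a2. The annotation used for counting has another start for Chgb, at 132781278, ahead of the whole promoter window. By that annotation the element of Chgb lies within the span of the gene. For the transcripts of the 3 genes, the decreases were −0.33, −0.28 and −0.88 on the log2 scale.

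Ion channel genes moved little. Of 39 potassium channel genes and partners, 16 were higher and 23 lower (median −0.02), and only Kcnip3 was called, by edgeR. Kcnip3, a calcium-binding partner of Kv4 channels that also represses transcription, lay from 80.7 to 91.8 CPM (median 86.5) in CB1-WT and from 69.8 to 77.999 CPM (median 72.6) in GABA-CB1-KO mice. The log2 fold change was −0.24 (SE 0.04, edgeR adjusted p = 0.0128), and the call was lost without the 3 libraries low in Lnpep (adjusted p = 0.111). Of 27 genes of calcium, sodium and HCN channels, 13 were higher and 14 lower and none was called by edgeR, with 2 at an unadjusted p under 0.05. Stac2, which binds L-type calcium channels, was called at −0.37 (SE 0.07, edgeR adjusted p = 0.039), and not without those libraries (adjusted p = 0.111). Of 21 glutamate receptor genes 12 were higher and 9 lower, and of 17 genes of GABA receptors and their scaffold 11 were higher and 6 lower. No member of either list was called by edgeR, and 3 and 0 had an unadjusted p under 0.05.

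The Cre driver acts in interneurons, so their genes were described by class. The list of CCK and VIP interneuron genes is wider than the CCK basket cells, in which CB1 is most abundant. Reln and Ndnf, for instance, are also on the Cajal-Retzius list. Its genes did not move together: of 14 tested members, 7 were higher in GABA-CB1-KO mice and 7 lower (median 0.02). None was called by edgeR, and 1 had an unadjusted p under 0.05. Cck itself lay from 173 to 193 CPM (median 179) in CB1-WT and from 161 to 193 CPM (median 171) in GABA-CB1-KO mice, and the ranges overlapped, with −0.05 (SE 0.04, edgeR adjusted p = 0.761). Vip had 0.15 (SE 0.08, edgeR adjusted p = 0.642) and Htr3a, a serotonin-gated channel on the same list, 0.16 (SE 0.07, edgeR adjusted p = 0.61). In genes of somatostatin, parvalbumin and NPY interneurons, of 15 tested members, 5 were higher in GABA-CB1-KO mice and 10 lower (median −0.04), 3 and 4 of them at an unadjusted p under 0.05. Crhbp (mm10, chromosome 13, 95431376–95444831), which encodes the binding protein of corticotropin-releasing hormone, was the 1 called. It lay between 21.4 and 28.5 CPM (median 24.6) in the CB1-WT libraries and between 16.5 and 19.6 CPM (median 18.1) in the GABA-CB1-KO libraries, a difference of −0.44 (SE 0.07, edgeR adjusted p = 0.0094) that held with each library left out (highest adjusted p = 0.0331). Crhbp was called in 10 of the 12 other fits (highest adjusted p = 0.07). Sst lay from 94.7 to 126 CPM (median 106) in CB1-WT and from 81.8 to 98.01 CPM (median 87.2) in GABA-CB1-KO mice. The lowest 2 CB1-WT libraries lay below the highest GABA-CB1-KO library, and the log2 fold change was −0.28 (SE 0.06, edgeR adjusted p = 0.127). Npy and Pvalb had −0.29 (SE 0.09, edgeR adjusted p = 0.35) and −0.18 (SE 0.05, edgeR adjusted p = 0.283). The 3 members higher at an unadjusted p under 0.05 were Tacr1, Grin3a and Nos1. Their log2 fold changes were 0.28, 0.19 and 0.19 (SE 0.10, 0.09 and 0.07, edgeR adjusted p = 0.521, 0.608 and 0.514). The summed level of the whole list was nearly alike, with a median of 1001 CPM in CB1-WT and 997 CPM in GABA-CB1-KO mice (exact permutation p = 0.877, two-sided, 0.877 adjusted over 16 cell type lists). Of 12 genes for GABA synthesis and transport and Dlx factors, 8 were higher and 4 lower (median 0.06), with 0 called by edgeR and 0 at an unadjusted p under 0.05. Gad1, Gad2 and Slc32a1 had log2 fold changes of −0.03, 0.03 and −0.05, and Dlx5 and Dlx6, whose regulatory elements drive Cre, −0.02 and 0.30 (SE 0.10 and 0.15).

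Of the 6 genes called higher, 2 belong together: Rspo1, a secreted R-spondin that strengthens Wnt signals, and Lgr5, one of its receptors. Rspo1 (mm10, chromosome 4, 124986430–125009099) was low in all mice. It lay between 0.521 and 1.14 CPM (median 0.849) in the CB1-WT libraries and between 1.55 and 2.57 CPM (median 1.86) in the GABA-CB1-KO libraries. This increase, of 1.17 (SE 0.18, edgeR adjusted p = 0.0132), was the largest of the 37 in the upward direction, although the call was lost without the 3 libraries low in Lnpep (log2 fold change 1.09, adjusted p = 0.111). Lgr5 lay from 2.49 to 3.38 CPM (median 2.81) in CB1-WT and from 3.66 to 4.95 CPM (median 4.47) in GABA-CB1-KO mice, again without overlap. Its log2 fold change was 0.64 (SE 0.10, edgeR adjusted p = 0.014), and it was lost in 1 of the 12 fits that left out a library (adjusted p = 0.0532, without GABA-CB1-KO replicate 6). The Wnt list as a whole did not follow: 15 of 33 tested members were higher and 18 lower (median −0.02), and Rspo1 and Lgr5 were its only calls by edgeR. Axin2 and Nkd1, common targets of the pathway, had −0.07 and 0.04 (adjusted p = 0.759 and 0.897), and Znrf3, a ubiquitin ligase removed by R-spondins, 0.00 (adjusted p = 0.998). Nkd2, a Wnt inhibitor, had 0.39 (SE 0.09, edgeR adjusted p = 0.115). The other genes called higher were Fibin, a secreted protein (0.68 (SE 0.12, edgeR adjusted p = 0.0331)), Lhx9, a LIM homeobox factor (0.23 (SE 0.04, edgeR adjusted p = 0.039)), Rps6ka5 (MSK1), a kinase of CREB and histone H3 (0.25 (SE 0.05, edgeR adjusted p = 0.039)), and Phactr2, a regulator of phosphatase 1 and actin (0.22 (SE 0.04, edgeR adjusted p = 0.047)). These 4 calls were lost without the 3 libraries low in Lnpep (adjusted p = 0.122, 0.145, 0.196 and 0.219), without both replicates 3 (adjusted p = 0.0903, 0.118, 0.13 and 0.186), and in 8, 10, 10 and 11 of the 12 fits that left out a library.

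**Figure D4:**
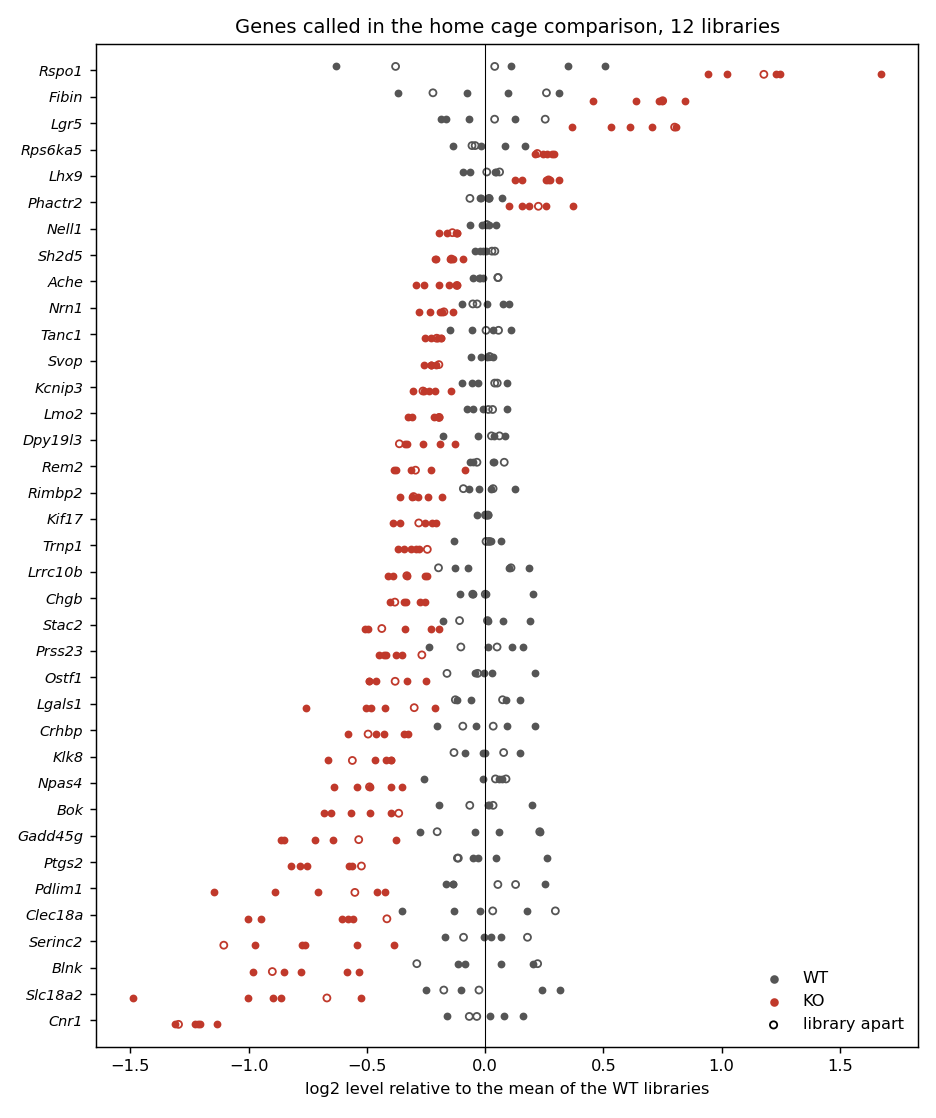
Level of each of the 37 called genes in each home cage library, as log2 relative to the mean of the CB1-WT libraries, ordered by fold change; CB1-WT grey, GABA-CB1-KO red, open circles the 3 libraries low in Lnpep. The groups do not overlap in any gene but Dpy19l3, and Cnr1 is the 1 gene with every GABA-CB1-KO library more than 1 log2 unit below the CB1-WT mean.

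The remaining calls span varied functions. Blnk (mm10, chromosome 19, 40928927–40994535), an adaptor of B cell receptor signals that is also found in myeloid cells, lay between 3.69 and 5.26 CPM (median 4.49) in the CB1-WT libraries and between 2.29 and 3.12 CPM (median 2.57) in the GABA-CB1-KO libraries. The change was −0.78 (SE 0.11, edgeR adjusted p = 0.00604). Pdlim1, a PDZ and LIM domain protein of the cytoskeleton, ends 657311 bp before Blnk on the same chromosome, lay from 2.30 to 3.07 CPM (median 2.51) in CB1-WT and from 1.16 to 1.92 CPM (median 1.67) in GABA-CB1-KO mice, and had −0.67 (SE 0.13, edgeR adjusted p = 0.0468). It was lost in all 12 fits that left out a library. Of the 23 other tested genes within 1 Mb of Blnk, 14 were higher and 9 lower, and Pdlim1 was the 1 called by edgeR. Trnp1, a nuclear protein known for its role in cortical expansion, lay from 99.9 to 115 CPM (median 111) in CB1-WT and from 84.6 to 92.3 CPM (median 88.7) in GABA-CB1-KO mice, a decrease of −0.31 (SE 0.03, edgeR adjusted p = 0.000861). Bok, a BCL2 family member that is a CA3 marker in the lists used here, fell from 50.8 ± 4.57 CPM (SD, n = 6) to 35.3 ± 3.21 CPM (SD, n = 6), a log2 fold change of −0.52 (SE 0.07, edgeR adjusted p = 0.00328). Bok was called in 10 of the 12 other fits (highest adjusted p = 0.181). Serinc2, of the serine incorporator family, fell from 8.06 ± 0.683 CPM (SD, n = 6) to 4.83 ± 0.892 CPM (SD, n = 6), with −0.74 (SE 0.11, edgeR adjusted p = 0.00659). The log2 fold changes of Ostf1, Prss23, Sh2d5, Lmo2, Nell1, Dpy19l3, Lrrc10b, Clec18a and Lgals1 were −0.40, −0.39, −0.16, −0.24, −0.14, −0.27, −0.33, −0.69 and −0.44, with edgeR adjusted p-values between 0.0128 and 0.0468. Of these 9, Ostf1 and Prss23 stayed called without the 3 libraries low in Lnpep, and the adjusted p of the other 7 lay between 0.0532 (Lrrc10b) and 0.205 (Dpy19l3).

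By position, chromosome 4, which carries Cnr1, held 6 of the 37 called genes (Cnr1, Rspo1, Serinc2, Trnp1, Kif17 and Sh2d5), that is 16.2% of the calls and 6.18% of the genes tested. Chromosome 19 held another 6 (Npas4, Lrrc10b, Ostf1, Pdlim1, Blnk and Slc18a2), against 3.42% of the genes tested. These shares were noticed in the data and are a description. Sh2d5 (mm10, chromosome 4, 138250411–138260968) lies next to Kif17 (mm10, chromosome 4, 138262251–138301973) on the same strand. By these coordinates the genes do not overlap, and whether transcripts cross their border was not tested.

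With the 3 libraries low in Lnpep as a covariate, 9 more genes were called (45 of 15082, 0.298%). Higher in GABA-CB1-KO mice were Plagl1, an imprinted zinc finger gene, Synm (synemin), Nkd2 and B3gat2, and lower were Acvr1c (ALK7), Ier5, Slc7a14, Stx6 and Nptx2. Plagl1 lay from 25.05 to 47.6 CPM (median 36.1) in CB1-WT and from 49.1 to 71.2 CPM (median 55.3) in GABA-CB1-KO mice. The groups did not overlap, and the log2 fold change was 0.73 (adjusted p = 0.0388) with the covariate and 0.71 (adjusted p = 0.0753) without it. Acvr1c changed most, from an adjusted p of 0.375 without to 0.00505 with the covariate (log2 fold change −0.37). Nptx2 (neuronal pentraxin 2), an activity-induced protein that clusters AMPA receptors, had −0.47 (adjusted p = 0.0388). This covariate was chosen after the data were seen.

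The mouse numbers on the labels fall into a 500 and a 600 range, with 4 CB1-WT and 2 GABA-CB1-KO mice in the first and 2 and 4 in the second. What the ranges stand for is not stated on the labels. Within the ranges, the log2 differences were −1.21 and −1.31 for Cnr1, −0.59 and −0.81 for Ptgs2, −0.27 and −0.44 for Chgb, and −0.41 and −0.44 for Crhbp. With the range as a covariate, 24 genes were called, 23 of them among the 37.

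Mice of the same line that had been exposed to the open field, 7 CB1-WT and 5 GABA-CB1-KO by their labels, share no library with the basal comparison. Of the 37 genes, 32 had the same direction there, as had 42% of all genes tested in both (6312 of 15012). Bok, Prss23, Sh2d5, Lrrc10b and Lgals1 had the opposite direction. The 37 were chosen for passing the threshold in the basal libraries, so the sizes in the 2 states are not compared. The genes called lower had a median log2 fold change of −0.12 after the open field. An unadjusted p under 0.05 was reached in either direction by 13.2% of all genes. In the same direction as in the home cage it was reached by 14 of the 37. The share of all genes by that narrower measure was not computed. The 14 were Cnr1, Blnk, Crhbp, Ostf1, Rspo1, Lgr5, Slc18a2, Gadd45g, Fibin, Lmo2, Nell1, Stac2, Dpy19l3 and Pdlim1. Rspo1 went from 0.745 ± 0.118 CPM (SD, n = 7) to 1.58 ± 0.727 CPM (SD, n = 5) (log2 fold change 1.08, edgeR adjusted p = 0.202). Cnr1 and Pdlim1 were among 3 genes (0.0199%) called over all genes after the open field, at −1.45 and −1.07 (edgeR adjusted p = 6.84e-07 and 0.000366). Svop, Trnp1, Kif17 and Ache had log2 fold changes of −0.01, −0.04, −0.00 and −0.00 after the open field (SE 0.07 to 0.12). Ptgs2 and Npas4 had −0.32 and −0.29 (SE 0.15 and 0.20). The change of the genotype difference between the states, tested over the 24 libraries of the line, was called by edgeR for 0 of 15374 genes, with 2237 at an unadjusted p under 0.05 and 62 called by DESeq2. None of the 62 was among the 37. For this change, 12 of the 37 had an unadjusted edgeR p under 0.05. These were Cnr1, Svop, Klk8, Bok, Kif17, Rimbp2, Tanc1, Sh2d5, Rps6ka5, Lrrc10b, Pdlim1 and Lgals1. The basal libraries on which the 37 were chosen enter this change.

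**Figure D5:**
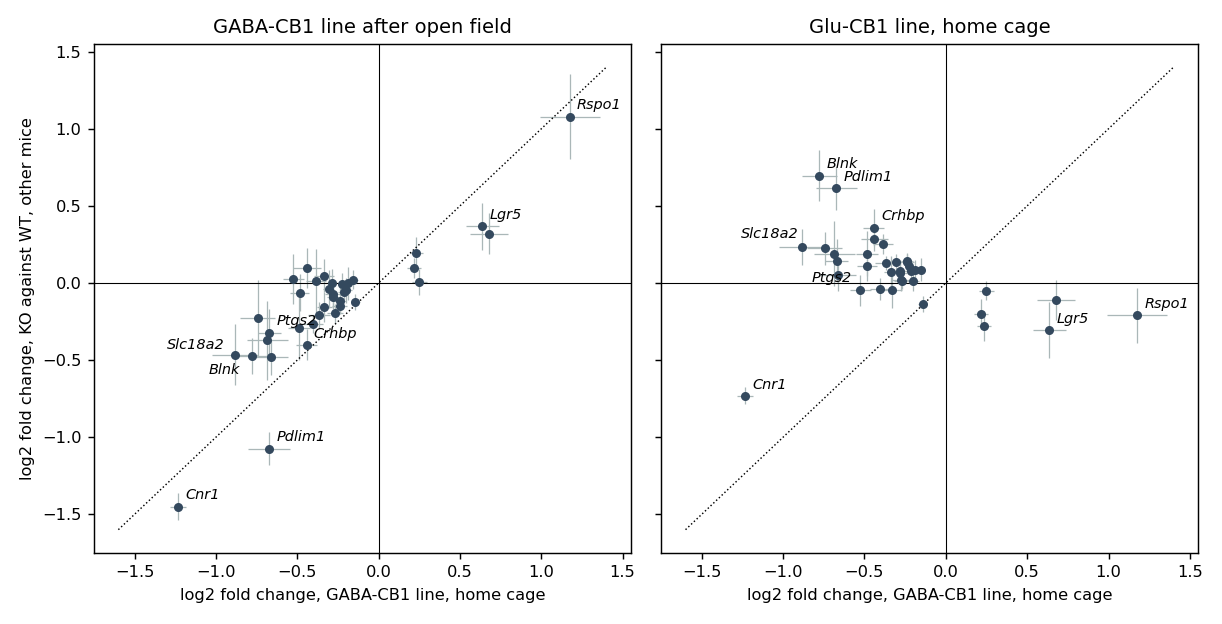
Log2 fold change (KO against WT, bars are SE) of the 37 genes called in the GABA-CB1 line in the home cage (x axis) against that in the GABA-CB1 line after the open field (left) and in the Glu-CB1 line in the home cage (right); the dotted line marks equal values. On the left 32 of the 37 genes have the same sign, with Cnr1, Pdlim1 and Rspo1 farthest from 0, while on the right 32 have the opposite sign, and Cnr1 is below 0 on both axes.

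In the home cage mice of the Glu-CB1 line, in which CB1 is deleted from glutamatergic neurons, the 37 genes mostly had the opposite direction: 32 of 37, as had 58.2% of all genes tested in both (8746 of 15024). Cnr1 was lower there as well (−0.73). Blnk had 0.70, Pdlim1 0.61 and Crhbp 0.36 on the log2 scale in Glu-CB1-KO mice (SE 0.17, 0.14 and 0.12), with adjusted p-values within that line of 0.686, 0.669 and 0.999, where 3.57% of all genes had an unadjusted p under 0.05. The difference between the lines was called for 20 of the 37, and for 43 of 15390 genes overall (0.279%). The 37 were chosen on the GABA-CB1 libraries that enter this difference, so the 20 are no separate support. For Blnk the difference was −1.47 (SE 0.21, edgeR adjusted p = 0.00118), for Rspo1 1.39 (SE 0.26, adjusted p = 0.0125) and for Slc18a2 −1.12 (SE 0.19, adjusted p = 0.00404).

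Markers of the cell types that the dissection could hold were summed per library. Pyramidal cell lists were close between genotypes, with medians of 1249 and 1263 CPM for CA1 and 863 and 873 CPM for CA3 and CA2 in CB1-WT and GABA-CB1-KO mice. Dentate granule cell genes, which the dissection was meant to leave out, summed to 689 to 1254 CPM in CB1-WT mice, highest in replicate 3, and to 765 to 893.4 CPM in GABA-CB1-KO mice. Pitpnm2, Calb1 and Rfx3 weigh most in this sum, with means of 217, 119 and 116 CPM in CB1-WT mice. Prox1, C1ql2 and Tdo2 had 37.7, 21.1 and 6.17 CPM. Sums of different lists depend on their genes and do not give shares of tissue. All 13 microglia genes were lower in GABA-CB1-KO mice, with a median of −0.11 and 0 called by edgeR (2 at an unadjusted p under 0.05). Their sum was 485 and 472 CPM at the median (exact permutation p = 0.0758, adjusted 0.606). Of 14 oligodendrocyte genes, 10 were higher (median 0.12). None of the 16 lists passed the exact permutation test after adjustment. The smallest unadjusted p (0.0108, adjusted 0.173) was that of hypothalamus and pituitary genes, whose sum lay between 8.42 and 22.7 CPM in CB1-WT and between 14.99 and 221 CPM in GABA-CB1-KO mice.

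Growth hormone (Gh) and prolactin (Prl), which pituitary cells make, were at 157 and 41.99 CPM in GABA-CB1-KO replicate 3, at 37.002 and 11.3 CPM in replicate 5 and at 20.7 and 8.18 CPM in replicate 6. In CB1-WT mice they did not exceed 10.7 and 3.73 CPM. Choroid plexus genes reached 2404 CPM in CB1-WT replicate 3 and between 233 and 349 CPM in GABA-CB1-KO mice. Their list median was −0.66 over all libraries and 0.02 without both replicates 3. The part of these cells in the called genes was not tested beyond the fit without both replicates 3, in which Ptgs2, Svop, Chgb and Crhbp stayed called (adjusted p = 0.00424, 0.00113, 0.0193 and 0.0323) and 16 of the 37, among them Lgr5, Gadd45g, Fibin and Ache, did not (adjusted p = 0.0748, 0.0903, 0.0903 and 0.132 for these 4).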

How the data were processed

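RNA-seq was done on hippocampal CA tissue of 48 male mice, 1 library per mouse, of which the 12 basal libraries of the GABA-CB1 line are described here. The authors amplified RNA with a NuGEN Ovation kit, trimmed the single-end reads, mapped them to mm10 with STAR 2.6.0a and counted them per gene with featureCounts 1.6.2. The deposited table holds raw counts for 24421 genes, not normalized by the authors; no measurement column was left unused. Reads were counted with a strand setting, while strand marking by the kit is not given in the sources used here, so overlapping and antisense genes cannot be told apart. Without molecular identifiers, counting error is the lower limit of the error, and counts of near-identical genes are uncertain.

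Groups follow the sample labels. No 2 libraries of a group agreed within sampling noise (lowest chi-square per degree of freedom 2.93 over 30 pairs). Counts were normalized by TMM, filtered with filterByExpr (default settings) and tested with the quasi-likelihood F-test of edgeR 4.0.16 (R 4.3.3) over the 12 libraries, with Benjamini-Hochberg adjustment over all genes tested, and genes with an adjusted p under 0.05 were called. The test was tried on simulated counts. Changes between states and between lines were tested as interactions over 24 libraries. SEs were derived from the F statistic. Alternatives were DESeq2 1.42.0, RLE size factors, other filters, wider fits, the label number range, a block for the replicate number, and fits that each omit 1 library. Fits that mark or leave out the 3 libraries with Lnpep under 20 CPM, or leave out both replicates 3, were added after the data were seen. Summed CPM of cell type lists were compared by an exact permutation test (924 splits, Python 3.11.15, scipy 1.17.1). Within-range differences use log2(CPM + 0.5).

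The members of the comparison and the gene lists were chosen with earlier results of these data known. Named are Cnr1, every called gene, the gene with the smallest p of lists, genes measured by RT-qPCR in the study, neighbours within 1 Mb of Cnr1 and Blnk, and the largest changes at an unadjusted p under 0.001. Other list members, the genes of the libraries that stand apart and those called with the added covariate were named after their values were seen. The columns of 36 other libraries were used for the other state and line. RT-qPCR values were not used here, and 1 gene that the rule names is not reported here.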

Additional observations from a re-analysis of the deposited data

Results flagged for a closer look

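In 252 groups of 6 libraries (the called genes, other genes named and the gene lists, in each genotype), 25 had 1 library far from the others by Dixon's criterion. Chance at 1 in 20 would give 12.6 if the groups were independent and chosen beforehand. Some groups are genes named because single libraries stood apart in them, and list sums hold some of the same genes. The excess over 12.6 was therefore partly fixed by the choice of groups. CB1-WT replicate 3 was low in Trnp1 (99.9 CPM) and Kif17 (25.3 CPM) and in the sum of the synaptic vesicle genes (17466 CPM), and high in Ttr (1392 CPM) and the sum of the choroid plexus genes (2404 CPM). GABA-CB1-KO replicate 3 was high in Rn45s (66637 CPM), Lars2, a mitochondrial tRNA synthetase gene (4029 CPM), Gh (157 CPM), Prl (41.99 CPM) and the sum of the hypothalamus and pituitary genes (221 CPM). GABA-CB1-KO replicate 5 was high in Egr2 (9.73 CPM), Bdnf (52.9 CPM) and Fosb (9.08 CPM) and low in Tac2 (2.00 CPM). GABA-CB1-KO replicate 2 was low in Grin2b (31.1 CPM) and Lnpep (8.04 CPM) and high in the sum of the meningeal fibroblast genes (398 CPM). Single values were Npas4 in CB1-WT replicate 6 (8.53 CPM, low), Chgb in CB1-WT replicate 4 (1014 CPM, high), Rspo1 in GABA-CB1-KO replicate 6 (2.57 CPM, high), Mgll in GABA-CB1-KO replicate 4 (189 CPM, low), Ier5 in CB1-WT replicate 1 (18.7 CPM, low), Arc in CB1-WT replicate 2 (119 CPM, high), Stx6 in GABA-CB1-KO replicate 6 (75.7 CPM, high) and Pomc in CB1-WT replicate 2 (4.07 CPM, high).

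For 20 of the 37 called genes the basal genotype difference was not the same in the GABA-CB1 and Glu-CB1 lines (edgeR test of the difference, adjusted p between 0.000314 and 0.0497). The log2 difference, GABA-CB1 minus Glu-CB1, was Blnk −1.47, Pdlim1 −1.29, Slc18a2 −1.12, Serinc2 −0.97, Ptgs2 −0.82, Crhbp −0.80, Lgals1 −0.73, Gadd45g −0.72, Prss23 −0.64, Klk8 −0.59, Cnr1 −0.50, Stac2 −0.50, Trnp1 −0.44, Kcnip3 −0.38, Lmo2 −0.37, Svop −0.34, Tanc1 −0.29, Lhx9 0.51, Fibin 0.79 and Rspo1 1.39. The 37 genes were chosen on the GABA-CB1 libraries that enter these differences.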

How the results depend on the processing

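The decrease of Cnr1 was called in every fit tried, with log2 fold changes between −1.27 and −1.20 with each library left out. The number of called genes depended on the fit. Against 37 (31 lower, 6 higher), DESeq2 called 102 (78 and 24), the 37 among them, a fit of the 24 libraries of the line 18 (14 and 4), the label number range as a covariate 24 (21 and 3), and the fit without the 3 libraries low in Lnpep 22 (18 and 4). With those libraries as a covariate 10 genes were called higher, and without both replicates 3 there were 2. RLE size factors, other filters and the 48-library fit gave 27 to 38. The 48-library fit gave the 27, of which 18 were among the 37. Among the 18 genes called in the 24-library fit, 13 were among the 37. With each library left out, 17 to 34 genes were called, 15 to 30 lower and 2 to 5 higher, the fewest without GABA-CB1-KO replicate 6, and 16 of the 37 were called in each of these fits. Without 1 library the number was under 25 for CB1-WT replicates 4, 5 and 6 (21, 22 and 22) and for GABA-CB1-KO replicates 1, 2, 3, 5 and 6 (21, 24, 21, 22 and 17). Why the number differs between these fits, which all leave out 1 library, was not tested. DESeq2 called 62 genes for the change between states, against 0, and 75 for the difference between lines, against 43.

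Same-numbered CB1-WT and GABA-CB1-KO libraries did not stand out as pairs: of 6 correlations of their deviations from the group means 1 was over 0.1 (range −0.36 to 0.24). Among the CB1-WT libraries, 1 of 6 correlated best with its own number. The highest correlations were those of GABA-CB1-KO replicate 2 with CB1-WT replicates 5 and 1 (0.38 and 0.33), the libraries low in Lnpep. The correlations thus hold other splits between libraries and cannot decide whether same-numbered mice shared a litter or day. With the replicate number as a block 8 genes were called, 8 lower and 0 higher, namely Cnr1, Ptgs2, Svop, Trnp1, Klk8, Serinc2, Chgb and Gadd45g.

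Signs turned only for genes that were not called. Without both replicates 3 these were Rn45s (−0.147), Lars2 (−0.0156) and Adgrl2 (−0.0245); with the libraries low in Lnpep as a covariate Arc (−0.00479) and Znrf3 (−0.019); without those libraries Dlx5 (0.0478), Napepld (−0.00362), Nkd1 (−0.0326) and Znrf3 (−0.0163); and with the label range, alone or with that covariate, Znrf3 (−0.00502 and −0.00509). With 1 library left out at a time, the values that turned ran over these ranges: Adgrl2 (−0.0165 to 0.0784), Arc (−0.0915 to 0.141), Dlx5 (−0.0712 to 0.0426), Lars2 (−0.0484 to 1.55), Nkd1 (−0.00574 to 0.0732), Rn45s (−0.123 to 4.21), Tdo2 (−0.33 to 0.0196) and Znrf3 (−0.0219 to 0.0494). List medians moved by more than the spread between libraries in a few fits, among them those of choroid plexus, thalamus and Wnt genes without CB1-WT replicate 3.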

Other observations

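Further lists held no gene called by edgeR. Of glucocorticoid-induced genes, 13 of 16 tested were higher in GABA-CB1-KO mice (median 0.06, 0 at an unadjusted p under 0.05), and of circadian clock genes 12 of 16 (median 0.03, 1 at an unadjusted p under 0.05, Npas2 at 0.22 (SE 0.10, edgeR adjusted p = 0.585)). Of astrocyte genes, 3 of 14 were higher (median −0.03), of endothelial and mural genes 3 of 14 (median −0.04), of meningeal fibroblast genes 3 of 12 (median −0.23), of subiculum and cortex genes 7 of 13 (median 0.01), of thalamus and habenula genes 4 of 10 (median −0.08), and of Cajal-Retzius genes 3 of 6 (median 0.03). The counts at an unadjusted p under 0.05 in these 6 lists were 1, 0, 0, 0, 1 and 0. Of 9 blood genes 2 could be tested and 6 were listed at 0 in all 12 libraries.

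Some genes came close to the threshold with large changes. Klhl14 lay from 0.87 to 1.69 CPM (median 1.54) in CB1-WT and from 1.94 to 2.91 CPM (median 2.49) in GABA-CB1-KO mice without overlap, a log2 fold change of 0.77 (SE 0.16, edgeR adjusted p = 0.0722), and had −0.03 (SE 0.15) after the open field. Tnfrsf9, a costimulatory receptor, had −1.23 (SE 0.25, edgeR adjusted p = 0.0753) and Mylk3, a myosin kinase, −0.95 (SE 0.22, edgeR adjusted p = 0.128), both at levels of 0.878 and 1.39 CPM in CB1-WT mice.

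The libraries low in Lnpep are not confined to this comparison. By the same measure, 2 of 7 and 2 of 5 home cage libraries of the Glu-CB1 line (KO and WT), 1 of 5 and 1 of 7 open field libraries of the GABA-CB1 line and 2 of 7 and 2 of 5 of the Glu-CB1 line had Lnpep under 20 CPM. What these libraries share was not tested.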
